A study of Mus musculus with 20 samples.

Results

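Genes of the step that lets a cell leave G1 phase were followed through 20 libraries of a mouse T cell line: the D-type cyclins Ccnd1, Ccnd2 and Ccnd3, the kinases Cdk4 and Cdk6, the CDK inhibitors Cdkn1a (p21), Cdkn1b (p27) and Cdkn2c (p18), and Rb1, the retinoblastoma protein. They were chosen by name, 9 of the 24391 genes in the count files, and all 9 had counts in every library. The cells were E2-10HA, a hybridoma, that is, a line made by fusing a T cell with a tumour cell, which the labels call mature T cells. RNA was depleted of ribosomal RNA and sequenced, and the series compared loss of the histone variant H2A.Z and gain of the Notch intracellular domain (NICD), the part of the Notch receptor that acts on genes in the nucleus.

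There were 6 groups, all in the same line. CRISPR controls (n = 6) carried lentiCRISPRv2 with no guide, and H2A.Z guide samples (n = 6) carried that vector with guides against H2afv and H2afz, the genes that encode H2A.Z; both were selected with puromycin. BioNICD samples carried the bacterial biotin ligase BirA and a biotin-tagged NICD, either wild type (n = 2) or the DEP mutant (n = 2), from a vector that also makes GFP, and were selected with histidinol and by sorting. NICD-ER samples carried a Flag-tagged NICD fused to the hormone-binding part of the estrogen receptor, were sorted, and received ethanol (n = 2) or its ligand 4-hydroxytamoxifen (4-OHT, n = 2) for 24 hours. The H2A.Z comparison is thus between lines, guide samples all bearing 1 line number, whereas the NICD-ER comparison is between treatments of 1 construct. The BioNICD comparison is between cells with different constructs, both of which make a NICD. Below, a change with NICD in BioNICD means wild type against DEP mutant. There was no sample with unmodified cells, so the 3 settings differ in vector, selection and submission, and levels were not tested between them.

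D-type cyclins bind CDK4 or CDK6, and the active pair phosphorylates the retinoblastoma protein and its relatives, which then let go of E2F transcription factors so that genes for DNA replication are read. p18 belongs to the INK4 family, which binds CDK4 and CDK6 and keeps the cyclin off, whereas p21 and p27 bind whole cyclin-CDK pairs, above all those with CDK2. Cyclin D3 is the D-type cyclin that expanding T cell precursors are known to need, and Notch signalling is known to raise it in such cells and in T cell leukaemia; p18 and p27 are known brakes on lymphocyte division.

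The libraries held between 10704131 and 48238324 counts. The CRISPR controls ranged from 10704131 to 15440584 and the guide samples from 13309111 to 18344298. Levels below are in CPM, counts scaled to library size with TMM factors over all 20 libraries, and fold changes are from the quasi-likelihood test of edgeR, a gene being called changed at a Benjamini-Hochberg adjusted p under 0.05 over all genes tested. The targeted genes were low in the guide samples, H2afz at 5.19 ± 0.44 CPM (SD, n = 6) against 28.2 ± 2.5 in the controls and H2afv at 36.0 ± 12.0 against 127.3 ± 11.8. The Notch target Hes1 rose with NICD, by 1.66 on the log2 scale in NICD-ER (adjusted p = 2.04e-23) and by 3.69 in BioNICD (adjusted p = 1.68e-29). Its level was already 25.9 ± 2.0 CPM with ethanol (SD, n = 2) and 5.60 ± 0.34 CPM with the DEP mutant (n = 2), against 1.49 ± 1.13 CPM in the CRISPR controls (n = 6). Hes1 also rose with the guides, by 2.29 (adjusted p = 2.13e-09), to 7.29 ± 4.74 CPM (n = 6). In replicates 1 and 2 its mean was 0.094 CPM in the controls and 1.28 CPM in the guide samples. In replicates 3 to 6 it was 2.18 and 10.3 CPM. Notch1 RNA stood at 642.7 ± 20.9 CPM with the DEP mutant and at 282.1 ± 11.3 CPM with wild-type BioNICD (n = 2 each). In NICD-ER it was at 98.4 ± 2.8 CPM with ethanol and 92.0 ± 2.5 CPM with 4-OHT (n = 2 each). The CRISPR controls held 2.00 ± 0.70 CPM and the guide samples 2.68 ± 0.59 CPM (n = 6 each). Whether these reads came from the introduced NICD or from the cells' own Notch1 gene was not tested. The part of the difference between DEP mutant and wild type in the results below was not tested either. Titles and descriptions name different groups for 6 of the 8 CRISPR samples numbered 3 to 6; groups follow the titles, which the integrated plasmid matches. Replicates 1 and 2 of the CRISPR groups (set 1) and replicates 3 to 6 (set 2) differ in how the labels and the recorded commands describe them and were taken as separate submission sets. Nothing says that replicates were separate cultures, and the p-values cover the spread between libraries alone, which may be technical. In bulk RNA, fewer cells in a given state and less RNA per cell cannot be told apart.

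Some libraries stood apart. Counts of the ribosomal precursor Rn45s made up between 6.73% and 7.67% of guide samples 5 and 6 and control 6, and between 1.84% and 4.53% of the others. The collagen genes of connective tissue Col1a1, Col1a2 and Col3a1 summed to 28.8 CPM in control 1 and 33.9 CPM in guide sample 1, and to at most 0.284 CPM in the other 18 libraries. Guide sample 1 also differed from guide sample 2 by a mean chi-square of 30.2 per gene, where sampling noise gives 1. Within set 2, pairs of the same group in which 1 library was rich in Rn45s differed by more, from 33.95 to 53.6. The NICD-ER libraries with ethanol differed by 19.9. The T cell list of 9 markers reached 1 CPM for 7 or 8 genes in every group, with a summed level between 3975 and 5652 CPM. Within it Cd8a was at 0 in every group but NICD-ER with ethanol, which held 1 count, and Cd247, which encodes a signalling chain of the receptor complex, lay between 0 and 0.197 CPM in the controls and between 15.1 and 29.2 CPM in the guide samples. The coreceptor gene Cd4 was likewise higher, at 3.666 to 5.997 CPM against 66.1 to 192.6 CPM, while Lck, which encodes a kinase of receptor signalling, was lower, at 160.6 to 186.6 against 42.4 to 73.9 CPM. No B cell (0 of 4) or erythroid (0 of 3) marker reached 1 CPM in any group. Wild-type BioNICD held Itgam, an integrin of myeloid cells, at 61.4 and 63.0 CPM and Pdgfrb, a growth factor receptor of fibroblasts, at 113.5 and 116.5 CPM, while the myeloid genes Lyz2 and Csf1r were each at most 0.167 CPM there and Col1a2 and Col3a1 were at 0. The part of these differences in the results below was not tested except where a value without those libraries is given.

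**Figure D1:**
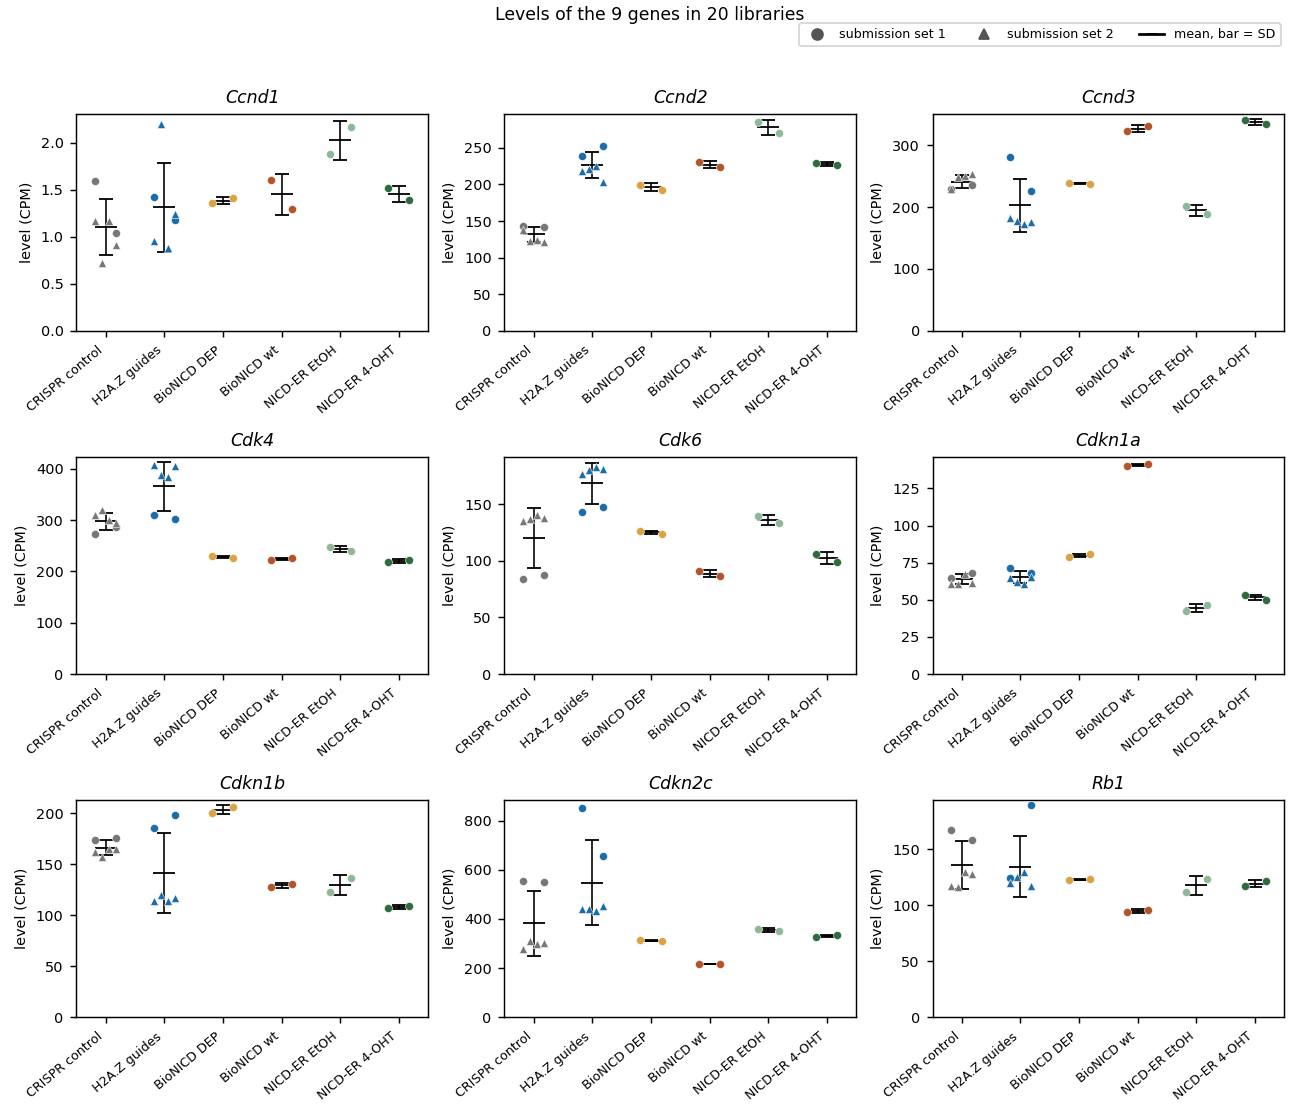
Level of each gene in CPM (vertical axis, linear, from 0) in the 6 groups (horizontal axis). Points are single libraries, round for set 1 and triangular for set 2, with the NICD libraries all round; the bar is the mean ± SD. Ccnd1 stays at or under 2.20 CPM everywhere, Ccnd3 is highest in wild-type BioNICD and in NICD-ER with 4-OHT, and Cdkn1a stands out in wild-type BioNICD. Within the guide group the sets lie apart for every gene but Ccnd1 and Rb1.

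Per kilobase of exon, Cdk4 had the highest mean level of the 9 in every group and Ccnd1 the lowest. In the CRISPR controls mean levels per kilobase were 220.8 CPM for Cdk4, 169.9 for Cdkn2c, 106.5 for Ccnd3, 69.2 for Cdkn1b, 48.6 for Cdk6, 31.5 for Cdkn1a, 29.5 for Rb1, 22.9 for Ccnd2 and 0.290 for Ccnd1. These cells therefore held mostly cyclin D3 messages among the D-type cyclins, and mostly p18 messages among the 3 inhibitors. The mean level on the log2 scale spanned at least 1 across the 6 groups for 3 of the 9 genes, Ccnd2 (1.07), Cdkn1a (1.65) and Cdkn2c (1.28), against 27.04% of 11988 genes passing the low-count filter.

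**Figure D2:**
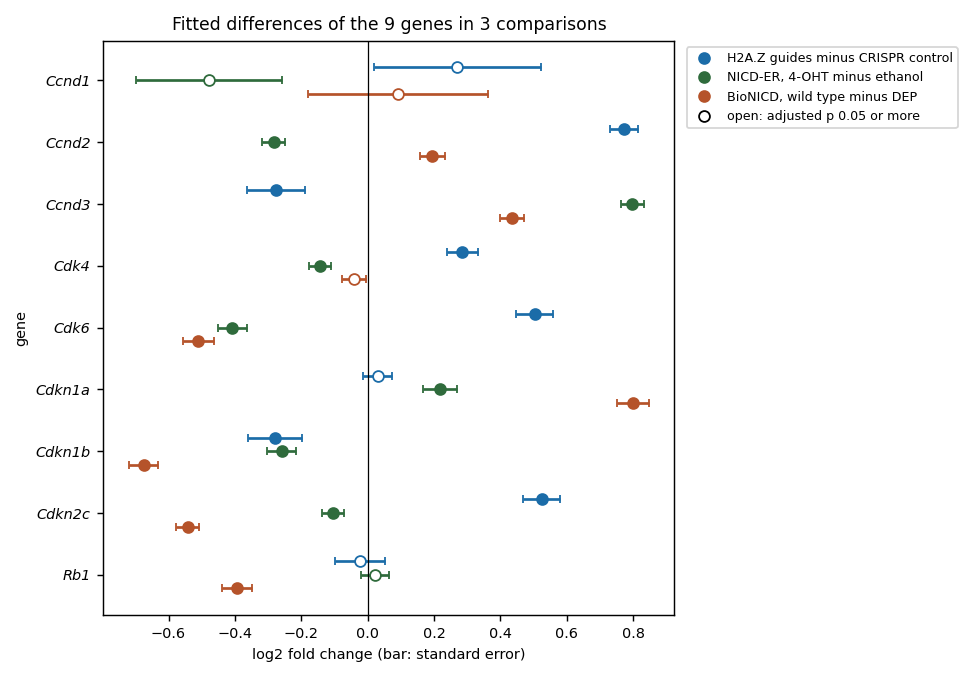
Fitted log2 fold change (horizontal axis) with its standard error (bar) for the 9 genes (vertical axis) in the 3 comparisons, one colour each; filled points have an adjusted p under 0.05. Ccnd3 lies to the right in both NICD comparisons and to the left in the H2A.Z comparison, Cdk6 the other way round, and Cdkn1b lies to the left in all 3.

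In the H2A.Z comparison 6 of the 9 genes were called, 4 higher (Ccnd2, Cdk4, Cdk6 and Cdkn2c) and 2 lower (Ccnd3 and Cdkn1b). Of all 10662 genes tested 64.5% were called, 31.8% higher and 32.7% lower, so the share among the 9 is close to that of all genes. With 4-OHT in NICD-ER cells 7 were called, 2 higher (Ccnd3 and Cdkn1a) and 5 lower (Ccnd2, Cdk4, Cdk6, Cdkn1b and Cdkn2c), where 36.6% of 12499 genes were called, 19.2% higher and 17.4% lower. Between wild-type and DEP BioNICD 7 were called, 3 higher (Ccnd2, Ccnd3 and Cdkn1a) and 4 lower (Cdk6, Cdkn1b, Cdkn2c and Rb1), where 65.7% of the same 12499 genes were called, 32.1% higher and 33.5% lower. No library was shared between these comparisons.

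Ccnd3 (cyclin D3, mm9 chr17:47642000-47736637, plus strand, 7 exons) rose with NICD in both constructs and was the member with the largest rise in NICD-ER cells. The sequence before its RefSeq starts is shown because Ccnd3 rose in both; the table, on build GRCm38.p6, holds 2 starts, and the 250 bases before each are given with a CCAAT box in capitals. It was searched on both strands for the core of the site bound by RBPJ, the DNA-binding partner of NICD (TGGGAA), for the E-box bound by Myc (CACGTG), for the CCAAT box (CCAAT) and for an E2F core (GCGGGAA), which 21.6%, 6.02%, 33.9% and 3.82% of 32851 windows of this length hold.
Ccnd3 start 1, chr17:47504801-47505050, plus strand: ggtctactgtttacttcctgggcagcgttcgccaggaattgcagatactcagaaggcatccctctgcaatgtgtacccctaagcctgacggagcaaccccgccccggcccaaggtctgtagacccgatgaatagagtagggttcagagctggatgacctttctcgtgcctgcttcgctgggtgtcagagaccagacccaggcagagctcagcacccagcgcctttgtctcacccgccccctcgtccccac
Ccnd3 start 2, chr17:47593217-47593466, plus strand: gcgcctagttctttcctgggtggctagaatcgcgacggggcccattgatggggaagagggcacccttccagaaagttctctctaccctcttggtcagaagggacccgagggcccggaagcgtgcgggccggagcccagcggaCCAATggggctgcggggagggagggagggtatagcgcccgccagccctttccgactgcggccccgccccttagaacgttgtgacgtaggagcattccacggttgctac
Neither window holds the RBPJ core letters, and the second holds 1 CCAAT box, its first base 108 before the start. A match or its lack describes these letters only, and nothing about binding follows.

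Ccnd3 stood at 201.3 and 188.0 CPM with ethanol and at 340.4 and 334.4 CPM with 4-OHT. Both 4-OHT libraries lay well above both ethanol libraries, and the rise was 0.80 on the log2 scale (SE 0.035, adjusted p = 4.04e-20). In the BioNICD lines Ccnd3 was at 238.7 and 238.0 CPM with the DEP mutant and at 322.8 and 330.2 CPM with wild-type NICD. The groups were again apart, and the rise was 0.44 on the log2 scale (SE 0.035, adjusted p = 4.56e-13). The rise in NICD-ER exceeded that in BioNICD by 0.36 (SE 0.05, adjusted p = 1.54e-07).

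In the CRISPR samples Ccnd3 ran from 229.3 CPM over a median of 241.6 to 252.9 CPM in the controls, and from 173.0 over 180.2 to 281.5 CPM in the guide samples. The ranges overlapped because of the set 1 guide samples, at 281.5 and 225.3 CPM, whereas the 4 guide samples of set 2 lay between 173.0 and 182.5 CPM, below every control. The fitted log2 fold change was -0.28 (SE 0.088, adjusted p = 0.012); within set 2 it was -0.47 (adjusted p = 4.8e-14) and within set 1 it was 0.12 (adjusted p = 0.54). Without the 3 libraries rich in Rn45s the change was -0.17 with an adjusted p of 0.204, so the call was lost. All 3 were of set 2, so set 1 weighed more in that fit. The guide samples rich in Rn45s, 5 and 6, were at 173.0 and 175.4 CPM. Guide samples 3 and 4 were at 182.5 and 177.9 CPM. Ccnd3 shares 358 of its 2260 exon bases with Bysl on the other strand, and the counting used no strand, so reads there cannot be told apart; Bysl differed by -0.05 (adjusted p = 0.55) in the H2A.Z comparison and fell by 0.15 (adjusted p = 0.0131) in NICD-ER and by 0.27 (adjusted p = 2.82e-05) in BioNICD, the other way from Ccnd3.

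Ccnd2 (cyclin D2, mm9 chr6:127075727-127101066, minus strand, 5 exons) rose most of the 9 genes in the guide samples. The controls ran from 122.0 over 131.3 to 143.5 CPM and the guide samples from 203.0 over 222.9 to 252.9 CPM. The lowest guide sample was far above the highest control, in both sets. The log2 fold change was 0.77 (SE 0.043, adjusted p = 1.33e-10), and it was 0.78 (SE 0.109) within set 1 and 0.78 (SE 0.039) within set 2.

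With NICD the gene went opposite ways in the 2 constructs. In NICD-ER cells Ccnd2 was at 285.3 and 270.8 CPM with ethanol and at 229.9 and 226.0 CPM with 4-OHT, lower in both treated libraries by 0.28 on the log2 scale (SE 0.035, adjusted p = 3.51e-08). In BioNICD cells it was at 199.8 and 192.5 CPM with the DEP mutant and at 230.5 and 223.7 CPM with the wild type, higher by 0.20 (SE 0.037, adjusted p = 1.94e-05). The 2 effects differed by -0.48 (SE 0.051, adjusted p = 7.7e-10). Group means of Ccnd2 were 226.6 CPM in the guide samples, 227.1 CPM in wild-type BioNICD and 227.9 CPM in NICD-ER with 4-OHT, and their ranges overlapped.

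Ccnd1 (cyclin D1, mm9 chr7:152115836-152125830, minus strand, 5 exons), the D-type cyclin of many epithelial tumours, was nearly silent. It had 11 to 17 counts per library in the controls and 11 to 34 in the guide samples. Its mean was 1.10 ± 0.30 CPM (SD, n = 6) in the controls, 1.31 ± 0.48 CPM (n = 6) in the guide samples, and between 1.38 and 2.03 CPM in the NICD groups. It was called in none of the comparisons: the log2 differences were 0.27 (SE 0.252, adjusted p = 0.363) with the guides, -0.48 (SE 0.22, adjusted p = 0.0903) with 4-OHT and 0.09 (SE 0.27, adjusted p = 0.782) in BioNICD, with errors that leave changes of about these sizes undetectable at this depth.

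Set against each other per kilobase, cyclin D3 gave way to cyclin D2 in the guide samples. Ccnd3 made up 80.0% to 84.0% of the summed D-type cyclin level in the controls and 66.1% to 74.9% in the guide samples, without overlap. The mean fell by 13.1 percentage points (exact permutation test, two-sided, p = 0.00217, the smallest that 6 against 6 can give; 0.00379 after Benjamini-Hochberg adjustment over the 7 shares examined). Ccnd2 rose from a mean of 17.7% ± 1.7 (SD, n = 6) to 30.8% ± 3.1 (n = 6). Because Ccnd1 made up only 0.22% of the sum in the controls, the Ccnd2 share mirrors that of Ccnd3. Its exact p, the same, is therefore no separate result. The Ccnd3 share was lower by 8.27 points in set 1 (2 against 2, no test possible below a p of 0.333) and by 15.6 points in set 2 (exact permutation p = 0.0286, the smallest for 4 against 4). The shares need no library scaling, and in set 1 both guide samples lay below both controls although the mean level of Ccnd3 was not lower there, with guide sample 1 at 281.5 CPM and guide sample 2 at 225.3 CPM against 229.3 and 235.1 CPM in the controls.

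NICD-ER cells went the other way. Their Ccnd3 share was 64.1% and 63.7% with ethanol and 78.9% in both libraries with 4-OHT. In BioNICD it was 75.1% and 75.7% with the DEP mutant and 78.0% and 78.9% with the wild type. Values only are given for these pairs of groups, because 2 against 2 cannot give an exact p under 0.333.

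**Figure D3:**
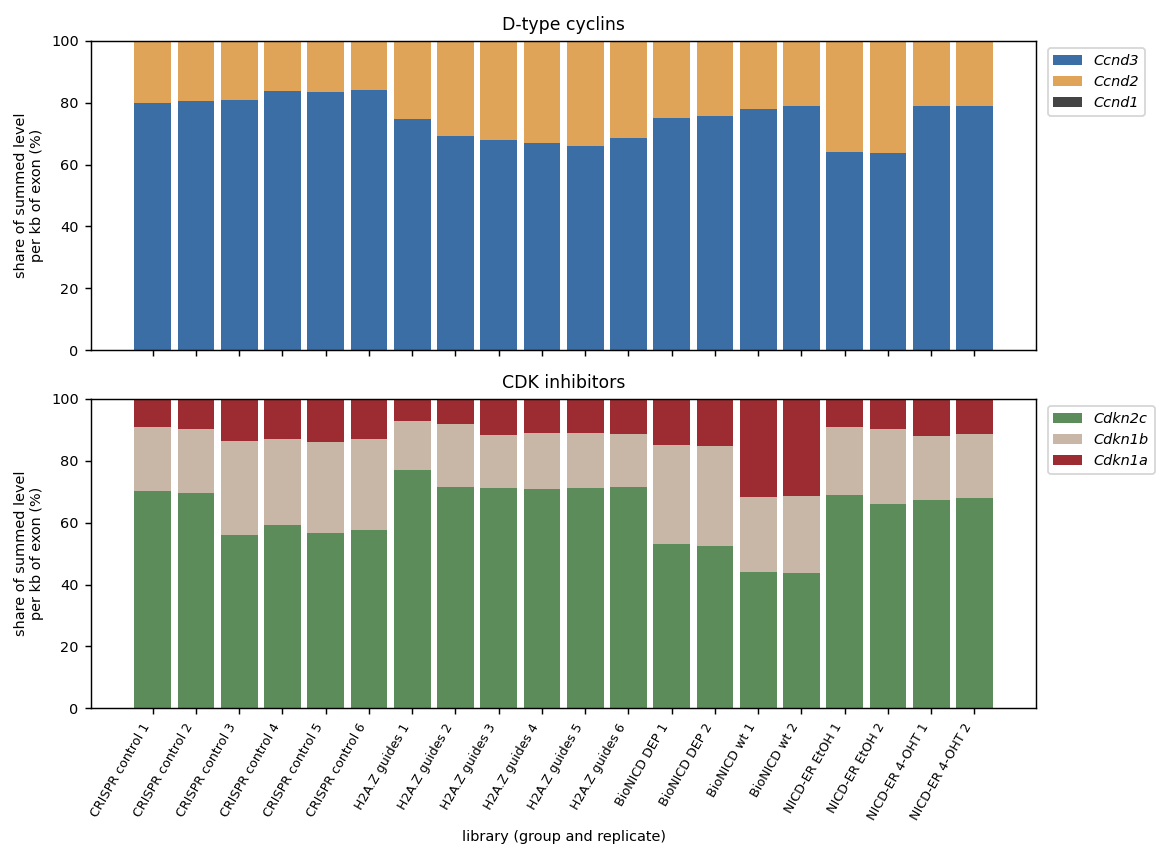
Share in percent (vertical axis, 0 to 100) of each gene in the summed level per kilobase of exon, for the D-type cyclins (upper panel) and the 3 CDK inhibitors (lower panel), 1 bar per library. The Ccnd3 part is smaller in every guide sample than in every control and larger with 4-OHT than with ethanol, Ccnd1 is too small to see, and the Cdkn1a part reaches 31.6% and 31.7% in wild-type BioNICD.

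Of the kinases, Cdk4 (mm9 chr10:126500659-126504338, plus strand, 8 exons) is the more abundant: Cdk6 made up 14.3% to 23.5% of their summed level per kilobase in single libraries. Its promoter is shown because it stands out among the 9 windows of the members in the number of E-boxes. Capitals mark 4 E-boxes, which begin 172, 118, 98 and 11 bases before the start, and 1 RBPJ core on the other strand, which begins 141 before it; no 2 of them overlap.
Cdk4, GRCm38.p6 chr10:127063285-127063534, plus strand: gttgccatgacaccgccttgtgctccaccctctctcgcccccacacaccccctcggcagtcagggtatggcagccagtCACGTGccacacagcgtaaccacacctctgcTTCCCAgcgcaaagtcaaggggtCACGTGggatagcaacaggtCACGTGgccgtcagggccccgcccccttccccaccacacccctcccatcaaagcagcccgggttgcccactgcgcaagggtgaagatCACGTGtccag
Of all windows 6.02% hold at least 1 E-box. The Cdk6 window, by contrast, holds 1 E-box, 220 before the start, in capitals, and no RBPJ core.
Cdk6, GRCm38.p6 chr5:3343643-3343892, plus strand: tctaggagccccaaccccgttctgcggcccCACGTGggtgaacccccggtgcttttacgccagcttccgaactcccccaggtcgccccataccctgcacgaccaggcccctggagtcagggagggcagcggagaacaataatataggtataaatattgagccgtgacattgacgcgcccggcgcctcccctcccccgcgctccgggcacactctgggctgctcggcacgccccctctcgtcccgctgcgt

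Cdk4 rose in the guide samples. It ran from 273.6 over 297.3 to 319.9 CPM in the controls and from 301.3 over 385.7 to 407.2 CPM in the guide samples, and the ranges overlapped through the 2 guide samples of set 1. The log2 fold change was 0.29 (SE 0.047, adjusted p = 4.78e-05), 0.37 within set 2 (adjusted p = 6.81e-12) and 0.12 within set 1 (adjusted p = 0.424). With NICD the changes were small: Cdk4 was at 247.8 and 240.2 CPM with ethanol and at 217.5 and 223.1 CPM with 4-OHT, lower by 0.14 (SE 0.034, adjusted p = 0.00076), a call that was lost in 1 model of all 20 samples (adjusted p = 0.141). In BioNICD it differed by -0.04 (SE 0.035, adjusted p = 0.299), from 229.1 and 227.0 to 222.9 and 226.1 CPM. Myc, whose protein binds E-boxes, was itself lower with NICD, from 229.7 ± 1.8 to 108.7 ± 0.8 CPM (SD, n = 2 each) with 4-OHT and from 238.0 ± 12.1 to 129.6 ± 2.7 CPM in BioNICD, and higher in the guide samples, from 181.7 ± 24.8 to 260.3 ± 17.8 CPM (n = 6 each); whether the 2 are linked was not tested.

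Cdk6 (mm9 chr5:3344312-3522225, plus strand, 7 exons), the CDK4 relative that is prominent in blood cells, rose with the guides and fell with NICD in both constructs. The controls ran from 83.8 over 135.9 to 140.3 CPM and the guide samples from 142.9 over 178.5 to 182.6 CPM. Every guide sample lay above every control, and within each set the gap was wide, since the set 1 controls, at 83.8 and 87.3 CPM, were low. The log2 fold change was 0.50 (SE 0.055, adjusted p = 5.76e-07). Genes of chromosome 5 as a whole went the other way in this comparison, with a median of -0.33 over 682 genes, against -0.01 over all genes tested. The largest shift of any chromosome was that of chromosome 8, with a median of 0.51 over 572 genes. It was 0.54 within set 1 and 0.50 within set 2. No member lies on chromosome 8. The pathway lists below were not adjusted for these shifts, and the part of the shifts in their rises and falls with the guides was not tested.

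With 4-OHT Cdk6 went from 139.3 and 133.2 CPM to 106.4 and 98.5 CPM, a fall by 0.41 (SE 0.043, adjusted p = 1.04e-09). In BioNICD it went from 126.0 and 124.0 CPM with the DEP mutant to 91.1 and 86.3 CPM with the wild type, a fall by 0.51 (SE 0.046, adjusted p = 6.05e-12). The groups did not overlap in either construct, and the difference between the 2 effects was 0.10 (SE 0.063, adjusted p = 0.182). Relative to Cdk4, Cdk6 had a share of 23.2% and 23.5% per kilobase with ethanol, 21.05% and 19.4% with 4-OHT, 22.9% and 23.1% with the DEP mutant and 18.2% and 17.2% with wild-type BioNICD. In the H2A.Z comparison that share was 17.9% ± 2.8 in the controls and 20.1% ± 0.7 in the guide samples (SD, n = 6 each), which did not pass (exact permutation p = 0.0823; 0.115 adjusted over the 7 shares). The sets differed: the mean share went from 14.3% to 20.5% in set 1, by 6.255 points with 2 against 2 and no test, and by 0.199 points in set 2. Without control 5 or control 6 the adjusted p was 0.0364 or 0.0333.

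Cdkn1a (p21, mm9 chr17:29227931-29237667, plus strand, 4 exons), a target of p53 that blocks CDK2 and binds the replication factor PCNA, rose in wild-type BioNICD and was level in the guide samples. Its promoter window with an RBPJ core match on the other strand, 117 bases before the second of its 2 starts, is shown because the gene rose in both NICD comparisons; the first window holds none of the 4 motifs, and 21.6% of all windows hold this core.
Cdkn1a start 2, GRCm38.p6 chr17:29093519-29093768, plus strand: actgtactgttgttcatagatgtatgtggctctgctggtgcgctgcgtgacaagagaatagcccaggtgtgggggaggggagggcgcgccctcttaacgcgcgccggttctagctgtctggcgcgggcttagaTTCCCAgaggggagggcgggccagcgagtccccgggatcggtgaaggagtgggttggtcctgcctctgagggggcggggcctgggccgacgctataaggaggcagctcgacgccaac
In BioNICD the level was 79.1 and 80.6 CPM with the DEP mutant and 140.3 and 141.2 CPM with the wild type. The gap was many times the spread within a pair, and the log2 fold change was 0.80 (SE 0.047, adjusted p = 7.22e-17). In NICD-ER cells it was at 42.6 and 46.3 CPM with ethanol and at 53.0 and 50.2 CPM with 4-OHT, a rise of 0.22 (SE 0.051, adjusted p = 0.000742), smaller than in BioNICD by 0.58 (SE 0.069, adjusted p = 9.15e-09).

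In the CRISPR samples Cdkn1a ran from 60.6 over 63.0 to 68.3 CPM in the controls and from 60.6 over 65.3 to 71.3 CPM in the guide samples. The ranges lay on top of each other and the log2 difference was 0.03 (SE 0.044, adjusted p = 0.571). Removal of H2A.Z from the Cdkn1a promoter is a known step of its activation in other cell types; these libraries measured RNA only. Trp53, which encodes p53, was at 91.7 and 329.5 CPM in the DEP libraries and at 67.4 and 70.9 CPM with wild-type BioNICD, a difference that was not called (-1.61, adjusted p = 0.0947), with the DEP pair themselves far apart.

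Cdkn1b (p27, mm9 chr6:134870419-134875543, plus strand, 3 exons), the inhibitor that falls when resting T cells start to divide, was the only one of the 9 to be called lower in all 3 comparisons, though those with the guides and with 4-OHT were each lost under another choice of samples. Its promoter window holds 2 CCAAT boxes, in capitals, 161 and 35 bases before the start, and no RBPJ core, E-box or E2F core.
Cdkn1b, GRCm38.p6 chr6:134920151-134920400, plus strand: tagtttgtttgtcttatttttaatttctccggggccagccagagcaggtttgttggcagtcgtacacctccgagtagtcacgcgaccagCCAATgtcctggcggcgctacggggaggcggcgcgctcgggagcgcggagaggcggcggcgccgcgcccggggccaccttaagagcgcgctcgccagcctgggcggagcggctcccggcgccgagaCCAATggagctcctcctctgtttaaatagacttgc
In BioNICD it was at 200.3 and 206.4 CPM with the DEP mutant and at 127.7 and 130.7 CPM with the wild type, a fall by 0.68 (SE 0.043, adjusted p = 9.97e-16). In NICD-ER it went from 122.6 and 136.7 CPM with ethanol to 106.9 and 109.2 CPM with 4-OHT, a fall by 0.26 (SE 0.043, adjusted p = 7.23e-06); that call was lost in 1 model of all 20 samples (adjusted p = 0.157). Neither pair of groups overlapped, and the fall in BioNICD was larger by 0.42 (SE 0.06, adjusted p = 5.19e-07).

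In the CRISPR samples Cdkn1b fell in set 2 and did not fall in set 1. The controls ran from 156.7 over 165.1 to 175.8 CPM; the 4 guide samples of set 2 lay between 114.3 and 119.6 CPM, but those of set 1 were at 185.8 and 198.2 CPM, above every control. The log2 fold change over both sets was -0.28 (SE 0.082, adjusted p = 0.007), -0.48 within set 2 (adjusted p = 9.87e-14) and 0.13 within set 1 (adjusted p = 0.406). Without the 3 libraries rich in Rn45s, all of set 2, it was -0.18 with an adjusted p of 0.15, and the call was lost. Guide samples 5 and 6, rich in Rn45s, were at 114.3 and 116.7 CPM, and guide samples 3 and 4 at 114.3 and 119.6 CPM.

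Cdkn2c (p18, mm9 chr4:109333481-109339361, minus strand, 3 exons), the INK4 inhibitor with the highest level here, rose with the guides and fell with NICD. Within set 1 it went from 554.1 and 550.5 CPM in the controls to 852.7 and 657.6 CPM in the guide samples. Within set 2 it went from 278.5 to 311.5 CPM in the 4 controls to 432.3 to 454.5 CPM in the 4 guide samples. The sets started from different levels but neither overlapped within itself, and the log2 fold change was 0.52 (SE 0.055, adjusted p = 3.5e-07), 0.45 within set 1 (adjusted p = 0.0434) and 0.57 within set 2 (adjusted p = 5.23e-16). Of its 2 windows in the table the first holds an E2F core on the other strand, 25 bases before the start, which 3.82% of windows hold.

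In BioNICD Cdkn2c was at 313.7 and 310.4 CPM with the DEP mutant and at 216.2 and 218.1 CPM with the wild type, a fall by 0.54 (SE 0.034, adjusted p = 3.14e-16). In NICD-ER it went from 360.1 and 351.0 to 326.3 and 333.6 CPM, a fall by 0.10 (SE 0.033, adjusted p = 0.0109), and that call was lost without ethanol replicate 1 (adjusted p = 0.0742), 4-OHT replicate 1 (0.0998) or 4-OHT replicate 2 (0.0577), and in 1 model of all 20 samples (0.406). The fall in BioNICD was larger by 0.44 (SE 0.047, adjusted p = 9.43e-10).

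Among the 3 inhibitors per kilobase, the make-up changed in different ways. In the guide samples the Cdkn2c share rose from 61.6% ± 6.6 to 72.2% ± 2.4 and the Cdkn1b share fell from 26.4% ± 4.5 to 17.7% ± 1.5 (SD, n = 6 each), both with an exact permutation p of 0.00217 (0.00379 adjusted over the 7 shares). Both are parts of 1 sum, so these are not separate results. No guide sample overlapped a control in either share, but by narrow margins. The highest guide sample was at 20.2% and the lowest control at 20.6% for Cdkn1b, and the lowest guide sample at 70.85% and the highest control at 70.2% for Cdkn2c. These pooled tests ignore the set. Within the sets the Cdkn1b share was lower by 2.74 points in set 1 and by 11.7 in set 2, and the Cdkn2c share was higher by 4.42 points in set 1 and by 13.8 in set 2. The Cdkn1a share, 12.0% ± 2.1 in the controls and 10.1% ± 1.9 in the guide samples, overlapped when the sets were pooled (exact permutation p = 0.139), in a test that ignores the set. Within set 2 it was lower by 2.03 points without overlap (exact permutation p = 0.0286; 0.04 adjusted over the 7 shares), and within set 1 by 1.68 points, with no test. In BioNICD the Cdkn1a share was 14.9% and 15.1% with the DEP mutant and 31.6% and 31.7% with the wild type, while that of Cdkn2c went from 52.3% and 53.2% to 44.0% and 43.8%.

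Rb1 (mm9 chr14:73595309-73725598, minus strand, 27 exons), the substrate of the cyclin D kinases, was called lower in wild-type BioNICD and was not called in the other comparisons. It was at 122.8 and 123.3 CPM with the DEP mutant and at 94.0 and 96.0 CPM with the wild type, a fall by 0.39 (SE 0.045, adjusted p = 1.92e-09). In NICD-ER it was at 112.0 and 123.8 CPM with ethanol and at 117.1 and 121.8 CPM with 4-OHT, which overlap, with a log2 difference of 0.02 (SE 0.043, adjusted p = 0.743). The 2 effects differed by 0.42 (SE 0.062, adjusted p = 7.63e-07). In the CRISPR samples the controls ran from 116.8 over 129.0 to 167.5 CPM and the guide samples from 117.2 over 125.2 to 189.4 CPM, and the log2 difference was -0.02 (SE 0.075, adjusted p = 0.811).

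Whether the guides acted alike in both submission sets was tested as a difference, set 2 minus set 1. Of the 9 genes 4 differed, 1 upwards (Cdk4, by 0.24, SE 0.071, adjusted p = 0.0301) and 3 downwards: Ccnd3 (-0.59, SE 0.1, adjusted p = 0.001), Cdk6 (-0.37, SE 0.067, adjusted p = 0.0016) and Cdkn1b (-0.62, SE 0.069, adjusted p = 2.82e-05). Of all 10662 genes tested 15.8% were called. The Cdk4 call was lost without any one of 6 libraries, controls 1, 2, 5 and 6 and guide samples 3 and 6 (adjusted p between 0.0607 and 0.13), and without the libraries rich in Rn45s (0.191). Ccnd2 moved nearly equally in both sets, with a difference of -0.01 (SE 0.085, adjusted p = 0.96). Set 1 rests on 2 guide samples that differ from each other: without guide sample 1 the test called 6 of the 9 and 2427 genes in all, and without guide sample 2 it called 5 of the 9 and 4081 in all, against 4 and 1687 with every library. Without control 1 or control 2 it called 873 or 1052 genes in all and 3 of the 9, and without the libraries rich in Rn45s 468 in all and 3 of the 9.

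Leaving out both libraries with collagen counts, control 1 and guide sample 1, kept the 6 calls of the H2A.Z comparison, with Ccnd3 at -0.38 (adjusted p = 1.53e-05) and Cdkn1b at -0.34 (adjusted p = 0.00438). In the test between sets 6 of the 9 were then called, with Cdkn2c at 0.31 (adjusted p = 0.00221) and Rb1 at -0.26 (adjusted p = 0.0332) added.

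**Figure D4:**
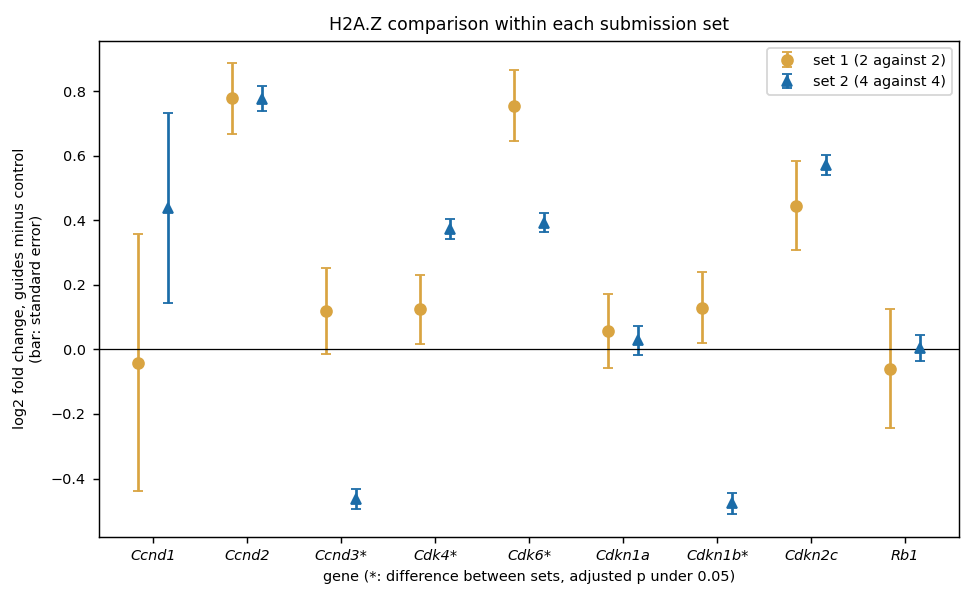
Log2 fold change of guide samples over controls (vertical axis) with its standard error, for each gene (horizontal axis), fitted within set 1 (circles, 2 against 2) and within set 2 (triangles, 4 against 4); a star marks genes whose difference between sets had an adjusted p under 0.05. Ccnd2 and Cdkn2c lie above 0 in both sets, while Ccnd3 and Cdkn1b lie slightly above 0 in set 1 and near -0.5 in set 2.

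The 2 NICD constructs were compared in the same way, NICD-ER minus BioNICD. Of the 9 genes 6 differed, 4 upwards (Ccnd3, Cdkn1b, Cdkn2c and Rb1) and 2 downwards (Ccnd2 and Cdkn1a), where 51.6% of 12499 genes were called. For Ccnd3 this was a larger rise in NICD-ER, and for Cdkn1b and Cdkn2c a smaller fall. Cdk6 and Cdk4 did not pass, at 0.10 and -0.10 (SE 0.063 and 0.048; adjusted p = 0.182 and 0.0736). The constructs differ in vector, tag and control group, and 4-OHT was given for 24 hours while the labels give no treatment for BioNICD. The control groups also started from different levels of the Notch target Hes1, 25.9 CPM with ethanol and 5.60 CPM with the DEP mutant. These differences cannot be told apart.

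Around these 9 genes stood 6 lists of the same pathway. Of the other pocket proteins and E2F and DP factors, the partners on which CDK4 and CDK6 act, 7 of 12 rose and 3 fell with the guides (list median 0.34 on the log2 scale against -0.01 over all genes), 5 rose and 2 fell with 4-OHT (median 0.09 against 0), and 4 rose and 4 fell in BioNICD (0.01 against -0.02). DESeq2 gave 3 higher and 2 lower with 4-OHT. Of all genes tested 31.8% were called higher and 32.7% lower with the guides, 19.2% and 17.4% with 4-OHT, and 32.1% and 33.5% in BioNICD. Rbl2 (p130), the pocket protein of resting cells, rose from 82.4 ± 4.8 to 221.3 ± 15.6 CPM with the guides (log2 fold change 1.42, adjusted p = 1.14e-12), and fell from 211.8 ± 4.7 to 148.4 ± 7.0 CPM with 4-OHT (-0.51, adjusted p = 1.49e-13). Neither the list median nor the rise of Rbl2 with the guides was adjusted for chromosome shifts such as that of chromosome 8 (median 0.51). The part of those shifts in them was not tested. E2f6, a repressor of the family, had 1 count in the 6 controls together and 1239 in the 6 guide samples, a ratio of 1084 with a 95% counting interval of 194.2 to 42850, which covers counting error only; the NICD groups held it at 7.62 to 16.1 CPM, and it was lower with wild-type than with DEP BioNICD (-0.72, adjusted p = 1.45e-06). E2f2 rose with 4-OHT (0.46, adjusted p = 1.44e-10). Tfdp2, a dimer partner of E2F, fell in BioNICD from 22.7 ± 0.4 to 10.5 ± 0.2 CPM (-1.12, adjusted p = 2.6e-14).

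Of the cyclin E and A arm with CDK2, which takes over from cyclin D late in G1, 2 of 8 rose and 4 fell with the guides (median -0.10), 5 rose and 0 fell with 4-OHT (median 0.13; edgeR found 0 lower at an unadjusted p under 0.05 too, and DESeq2 3 higher and 0 lower), and 2 rose and 5 fell in BioNICD (median -0.25). The shares of all genes called were 64.5% with the guides, 36.6% with 4-OHT and 65.7% in BioNICD. Ccne2, a cyclin E, went from 25.5 ± 0.7 to 34.4 ± 0.7 CPM with 4-OHT (0.44, adjusted p = 6.22e-07) and from 30.6 ± 0.3 to 14.8 ± 0.9 CPM in BioNICD (-1.05, adjusted p = 7e-15). Ccna2 (cyclin A2) rose with 4-OHT by 0.32 (adjusted p = 1.63e-09). Mnat1, an assembly factor of the CDK-activating kinase, fell in BioNICD by 0.48 (adjusted p = 6.55e-10), and Cdk2 fell with the guides by 0.31 (adjusted p = 7.64e-05), where Ccnh, the cyclin of the CDK-activating kinase, rose by 0.23 (adjusted p = 0.0108).

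Of the other CDK inhibitors Cdkn2b and Cdkn2d were low, Cdkn1c did not pass the low-count filter, and Cdkn2a (p16 and Arf) had group means between 22.01 and 33.5 CPM and was called in none of the comparisons (0.07, adjusted p = 0.515; 0.01, adjusted p = 0.946; -0.04, adjusted p = 0.673). Of the 3 tested 0 rose and 1 fell with the guides (median -0.05), 0 were called with 4-OHT by edgeR (median 0.01; also 0 at an unadjusted p under 0.05 and 0 by DESeq2), and 1 rose and 1 fell in BioNICD (median -0.04; 0 by DESeq2). With the guides 0 were higher at an unadjusted p or by DESeq2 either. Over all genes tested 64.5%, 36.6% and 65.7% were called in the 3 comparisons. Cdkn2d (p19) fell with the guides by 0.51 (adjusted p = 0.015) and rose in BioNICD by 0.68 (adjusted p = 0.0113), and Cdkn2b (p15) fell in BioNICD by 0.75 (adjusted p = 0.0084). Both stayed at or below a group mean of 2.645 CPM.

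Of the ubiquitin ligase parts that turn over D cyclins, p21 and p27, 5 of 10 rose and 2 fell with the guides (median 0.13), 4 rose and 0 fell with 4-OHT (median 0.05; with edgeR 1 was lower at an unadjusted p under 0.05, and with DESeq2 0), and 2 rose and 6 fell in BioNICD (median -0.17). Among all genes 64.5% were called with the guides, 36.6% with 4-OHT and 65.7% in BioNICD. Fbxw7, which marks cyclin E and Myc for destruction, rose with the guides from 90.6 ± 2.0 to 167.9 ± 6.0 CPM (0.88, adjusted p = 5.1e-12), and Fbxo31, whose protein targets cyclin D1, rose by 0.78 (adjusted p = 4.2e-08). Here too the part of the chromosome shifts was not tested. Skp2, which marks p27 for destruction, rose with 4-OHT by 0.20 (adjusted p = 0.000454) and fell in BioNICD by 0.53 (adjusted p = 2.24e-11), while Cdkn1b RNA was lower in both. Dtl, part of the ligase that removes p21 and Cdt1 in S phase, rose with 4-OHT by 0.23 (adjusted p = 6.99e-06), and Fbxo4, linked to cyclin D turnover, rose in BioNICD by 0.68 (adjusted p = 3.21e-11).

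Of the upstream regulators 1 of 8 rose and 2 fell with the guides (median -0.06), 2 rose and 1 fell with 4-OHT (median 0.04), and 3 rose and 2 fell in BioNICD (median -0.04), where the shares of all genes called were 64.5%, 36.6% and 65.7%. Myc rose with the guides by 0.52 (adjusted p = 1.76e-07) and fell with 4-OHT by 1.08 (adjusted p = 6.59e-23) and in BioNICD by 0.89 (adjusted p = 8.49e-21). Zbtb17 (Miz-1), through which Myc represses Cdkn1a, fell with the guides by 0.50 (adjusted p = 0.000165), and Gsk3b rose with 4-OHT by 0.22 (adjusted p = 3.54e-05). Foxo1, an activator of Cdkn1b, rose in BioNICD from 37.0 ± 0.7 to 68.3 ± 3.8 CPM (0.87, adjusted p = 1.06e-15), where Cdkn1b fell.

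The E2F-driven genes of S phase mostly rose with 4-OHT and mostly fell in BioNICD and with the guides. Of 16, 3 rose and 10 fell with the guides (median -0.24), 13 rose and 0 fell with 4-OHT (median 0.17; edgeR found 0 lower at an unadjusted p under 0.05 too, and DESeq2 12 higher and 0 lower), and 1 rose and 12 fell in BioNICD (median -0.23). Of all genes 32.7% were called lower with the guides, 19.2% higher with 4-OHT and 33.5% lower in BioNICD. For this list and the others the counts with the guides pool both submission sets. The sets did not always move alike. The edgeR test between them, set 2 minus set 1, called Mcm6 (0.34, adjusted p = 0.00123) and Mcm3 (0.27, adjusted p = 0.0462). Guide samples also spread widely for some genes, as for Mcm2, from 133.8 to 277.6 CPM. With the guides Cdt1, which licenses replication origins, rose by 0.56 (adjusted p = 1.43e-07), and Rrm2, a subunit of ribonucleotide reductase, fell by 0.56 (adjusted p = 1.66e-09). With 4-OHT Tyms, thymidylate synthase, rose by 0.46 (adjusted p = 1.66e-08) and Mcm4, part of the replicative helicase, by 0.29 (adjusted p = 8.76e-09). In BioNICD Rrm2 fell from 772.0 ± 12.7 to 428.8 ± 5.5 CPM (-0.87, adjusted p = 4.37e-21), and Tyms was the gene that rose (0.70, adjusted p = 9.92e-12).

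**Figure D5:**
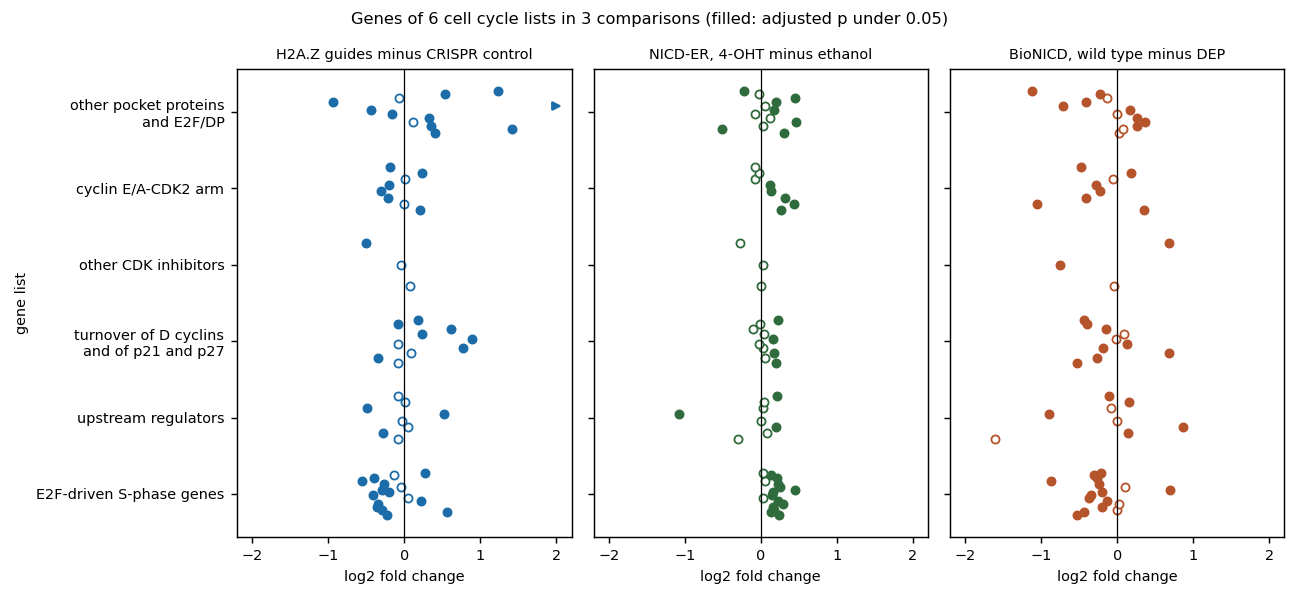
Log2 fold change (horizontal axis) of the genes of 6 lists (vertical axis, 1 point per gene) in the 3 comparisons; filled points have an adjusted p under 0.05, and the arrowhead in the H2A.Z panel is E2f6, beyond the axis because the controls held 1 count. The S-phase genes lie mostly left of 0 with the guides and in BioNICD and right of 0 with 4-OHT.

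For the 3 genes whose group means spanned at least 1 on the log2 scale, the genes with the nearest pattern over all 20 libraries were sought by the root mean square difference of their centred log2 levels. For Ccnd2 they were Fut8 (0.11) and Atf7ip (0.14), for Cdkn1a they were Litaf (0.19) and 1110038F14Rik (0.20), and for Cdkn2c they were S100a10 (0.16) and Sun2 (0.18).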

How the data were processed

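RNA-seq of 20 libraries was analysed from gene counts. Per the file headers, the authors deposited raw read counts for 24391 genes per sample, made with featureCounts 1.5.0 over exons of an mm9 annotation, with no strand and no overlap option recorded. The submitters' processing notes also name FastQC, Trimmomatic, STAR, DESeq2 and build mm9; versions of those are not given here by any source. The kit marks strand, but reads from overlapping genes cannot be told apart in these counts.

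Tests on counts were edgeR 4.0.16's quasi-likelihood tests (R 4.3.3; TMM scaling, filterByExpr, robust fit), with Benjamini-Hochberg adjustment over all genes and a threshold of 0.05. The H2A.Z comparison used 12 CRISPR libraries with the submission set as covariate (biological coefficient of variation 7.95%, 9 residual degrees of freedom); both NICD comparisons used 1 model of 8 libraries (3.58%, 4 degrees of freedom). The SE is the absolute log2 fold change divided by the square root of F. Alternatives were DESeq2 1.42.0, other scalings, no filter, other sample sets, a replicate block and leaving out each library. On simulated data with log2 changes of 0.5 the script recovered 82% of changed genes in the H2A.Z design and 75.3% in the NICD-ER design. Unchanged genes called were 6 and 14. All libraries were simulated around 1 mean per gene, with no difference between submission sets or constructs and no outlying library. Recovery in the real data may thus be lower, and changes under 0.5 were not simulated.

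Levels are CPM with TMM factors over all 20 libraries; the pseudocount on the log2 scale was 0.5. Shares were compared by exact permutation tests over samples. No 2 replicates were within sampling noise (lowest mean chi-square 2.66, where 1 is noise), so none were merged.

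The members and all 11 gene and marker lists were chosen with earlier results of these data known. All 9 members are named. Of each pathway list and comparison, the 2 called genes with the largest absolute log2 fold change are named, and other genes named with values (Trp53, Bysl, H2afz, H2afv, Hes1, Notch1, the markers) were chosen as checks. The alternatives without libraries with collagen counts, and without libraries rich in Rn45s in the test between sets, were chosen after seeing the data. Promoter windows are RefSeq's on build GRCm38.p6, matched by symbol for 6 of the 9 genes; Ccnd1, Ccnd2 and Rb1 had no entry. Gene coordinates are those of the files, in mm9.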

Additional observations from a re-analysis of the deposited data

Results flagged for a closer look

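Of 32 groups of 6 values, the levels and shares within each CRISPR group, 5 had a library far from the rest. For independent groups of like samples chance gives about 1 in 20. That reference holds only loosely here, since each group pools both submission sets and shares of 1 sum depend on each other. Rb1 stood at 189.4 CPM in guide sample 2, against 117.2 to 129.8 CPM in the other 5. The Ccnd1 share of the D-type cyclins was 0.494% in guide sample 4, against 0.201% to 0.289%. Guide sample 1, one of the libraries with collagen counts, stood apart in 3 shares: Ccnd2 at 24.9% against 30.5% to 33.7%, Ccnd3 at 74.9% against 66.1% to 69.3%, and Cdkn2c at 77.1% against 70.8% to 71.6%.

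The effect of the guides differed between submission sets, set 2 minus set 1, for Ccnd3 (-0.59), Cdk4 (0.24), Cdk6 (-0.37) and Cdkn1b (-0.62) on the log2 scale. The effect of NICD differed between constructs, NICD-ER minus BioNICD, for Ccnd2 (-0.48), Ccnd3 (0.36), Cdkn1a (-0.58), Cdkn1b (0.42), Cdkn2c (0.44) and Rb1 (0.42). Cdkn1b had the largest difference between sets of the 9 genes and Cdkn1a the largest between constructs. The cause was not tested.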

How the results depend on the processing

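Within set 1 alone 3075 genes and 3 of the 9 were called in the H2A.Z comparison, and with no set covariate 3 of the 9; in a model of all 20 samples the NICD-ER comparison called 2198 genes and 4 of the 9 (Cdk4, Cdkn1b and Cdkn2c lost). Leaving out each library gave 6585 to 7407 genes (H2A.Z), 3322 to 4308 (NICD-ER) and 7241 to 7816 (BioNICD), and 6, 6 to 7 and 7 of the 9. The direction turned within set 1 for Ccnd1 (-0.041), Ccnd3 (0.12), Cdkn1b (0.13) and the Ccnd1 share (-0.0528 points); for Rb1 within set 2 (0.004), without both collagen libraries (0.056 in the H2A.Z comparison, -0.26 between sets) and, for NICD-ER, with upper quartile scaling (-0.008); and for Cdkn1a between sets without both collagen libraries (0.025). Leaving out each library gave Rb1 -0.097 to 0.061 (H2A.Z) and -0.053 to 0.098 (NICD-ER), Ccnd1 -0.107 to 0.195 (BioNICD), and between sets Ccnd2 -0.053 to 0.035, Cdkn2c -0.06 to 0.315 and Rb1 -0.217 to 0.386. In the H2A.Z comparison the call of Ccnd3 was also lost without the filter (adjusted p = 0.0637) and without the set covariate (0.0601), as were then those of Cdkn1b (0.16) and Cdkn2c (0.0702). Between sets Cdk4 was lost on leaving out any of 6 libraries (adjusted p up to 0.13). Upper quartile scaling moved the NICD-ER split from 2403 higher and 2177 lower to 2011 and 2623, and called Cdk4 in BioNICD (adjusted p = 0.043). The Cdk6 share passed without control 5 (adjusted p = 0.0364) or 6 (0.0333). Same-numbered CRISPR samples correlated at -0.02 to 0.24, so the numbers were not taken as pairs. The 0.24 of replicates 1 and 2 is a single value, since deviations from a mean of 2 libraries mirror each other. Control 1 and guide sample 1 shared collagen counts (28.8 and 33.9 CPM), and whether same-numbered libraries were handled together was not tested. A replicate block gave 6423, 5110 and 8407 genes and changed no call of the 9. Scaling by total counts changed group levels by a factor of 0.972 to 1.06. Depth limits Ccnd1 most, with 11 to 34 counts per CRISPR library. The cause was not tested.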
